A study of Homo sapiens with 6 samples.

Results

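The genes described here are the human zinc transporters and metallothioneins, the proteins that move zinc ions across membranes and hold them in the cytosol. Members were taken by gene symbol: every protein-coding gene of the SLC39 and SLC30 transporter families, every lettered MT1 gene, MT2A, and the zinc-sensing transcription factor MTF1. This gave 34 genes of the 34371 features counted, namely 14 SLC39 genes, 10 SLC30 genes, 9 metallothioneins and MTF1. The RNA came from ME-1, a human acute myeloid leukaemia line known for the CBFB::MYH11 fusion. The cells carried either an empty control vector (3 libraries) or a vector for overexpression of SPNS2, an exporter of sphingosine-1-phosphate (3 libraries), and RNA was taken after selection of the transduced cells. The labels give no time after transduction, no promoter for the vector and no word on whether the libraries came from separate cultures, so p-values measure only the spread between these libraries, which may be technical.

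Zinc reaches the cytosol through SLC39 proteins (ZIPs), which work at the plasma membrane or release zinc from organelles. SLC30 proteins (ZnTs) carry it the other way, out of the cell or into organelles and vesicles. Metallothioneins are small cysteine-rich proteins that bind zinc and copper in the cytosol. MTF1 senses free zinc and binds metal response elements in the promoters of metallothionein genes and of SLC30A1, which are classical zinc-induced targets.

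The coding sequences of the 4 metallothioneins with enough counts to test are shown because their likeness bears on how reads could be shared among them. Each is read from the GENCODE 29 transcripts of GRCh38, 5′ to 3′ from the start codon to the stop codon, in lower case, with bases that differ from MT2A in capitals.
MT2A: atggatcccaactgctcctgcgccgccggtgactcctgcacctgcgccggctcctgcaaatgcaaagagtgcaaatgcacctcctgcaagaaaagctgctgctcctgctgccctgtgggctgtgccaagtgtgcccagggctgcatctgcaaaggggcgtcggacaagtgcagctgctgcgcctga
MT1X: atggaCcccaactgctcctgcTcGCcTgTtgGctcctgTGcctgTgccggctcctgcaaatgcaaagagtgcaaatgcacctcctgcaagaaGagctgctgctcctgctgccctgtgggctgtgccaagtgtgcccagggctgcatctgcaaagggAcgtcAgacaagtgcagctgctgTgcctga
MT1E: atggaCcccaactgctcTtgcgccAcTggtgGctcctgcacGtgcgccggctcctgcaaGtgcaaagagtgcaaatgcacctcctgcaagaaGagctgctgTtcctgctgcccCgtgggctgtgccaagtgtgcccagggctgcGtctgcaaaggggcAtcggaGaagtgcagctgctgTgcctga
MT1G: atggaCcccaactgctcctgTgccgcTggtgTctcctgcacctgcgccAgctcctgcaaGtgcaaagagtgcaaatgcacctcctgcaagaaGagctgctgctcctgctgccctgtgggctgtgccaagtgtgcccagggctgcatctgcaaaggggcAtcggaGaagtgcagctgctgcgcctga
All 4 were 186 bases long, with 61 codons before the stop, 20 of which were the cysteine codons TGC or TGT. MT1G differed from MT2A at 9 bases (95.2% identity), and MT1X and MT1E each differed at 14 (92.5%). Of the 31-base windows of each gene's principal transcript, MT1X shared 48.1% with transcripts of other genes, MT1G 31.4%, MT1E 15.3% and MT2A 12.2%. A change in 1 of these rows is therefore uncertain by itself, and their sum is given beside it.

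Promoters are shown for 4 members whose values are described below, each running from 250 bases before to 50 bases after the gene start. They come from RefSeq (GRCh38.p14) and are written 5′ to 3′ on the gene's strand, with matches to the core of the metal response element in capitals. The core was searched as TGCACNC and TGCGCNC on both strands, so the opposite strand reads GNGTGCA or GNGCGCA, and no 2 matches overlapped in the members' promoters.
MT2A, chr16:56608334-56608633, plus strand: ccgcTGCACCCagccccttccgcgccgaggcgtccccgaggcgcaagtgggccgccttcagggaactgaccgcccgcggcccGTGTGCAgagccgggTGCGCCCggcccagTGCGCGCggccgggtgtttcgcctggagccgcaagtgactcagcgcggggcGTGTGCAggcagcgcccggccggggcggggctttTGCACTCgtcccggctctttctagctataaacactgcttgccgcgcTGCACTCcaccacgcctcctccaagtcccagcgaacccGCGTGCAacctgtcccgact
MT1X, chr16:56682220-56682519, plus strand: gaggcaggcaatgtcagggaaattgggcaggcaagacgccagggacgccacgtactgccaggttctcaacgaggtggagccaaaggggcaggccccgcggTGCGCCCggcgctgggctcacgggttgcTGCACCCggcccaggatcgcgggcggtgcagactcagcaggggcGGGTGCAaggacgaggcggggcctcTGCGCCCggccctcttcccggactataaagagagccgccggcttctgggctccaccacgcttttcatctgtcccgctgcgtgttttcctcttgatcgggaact
SLC30A1, chr1:211579112-211579411, minus strand: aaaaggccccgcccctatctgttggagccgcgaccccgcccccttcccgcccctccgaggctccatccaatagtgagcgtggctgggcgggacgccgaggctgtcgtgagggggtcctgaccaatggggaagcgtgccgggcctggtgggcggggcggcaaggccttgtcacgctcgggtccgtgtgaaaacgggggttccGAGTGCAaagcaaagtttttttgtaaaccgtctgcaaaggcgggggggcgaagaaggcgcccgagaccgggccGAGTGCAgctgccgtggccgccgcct
SLC30A3, chr2:27262998-27263297, minus strand: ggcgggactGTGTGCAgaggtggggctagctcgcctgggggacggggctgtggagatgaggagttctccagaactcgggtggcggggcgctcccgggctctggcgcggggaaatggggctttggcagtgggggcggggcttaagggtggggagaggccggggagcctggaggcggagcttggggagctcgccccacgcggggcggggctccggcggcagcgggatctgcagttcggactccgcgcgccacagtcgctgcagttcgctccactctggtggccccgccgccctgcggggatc
The MT2A window held 8 matches, 5 on the gene's strand and 3 on the other, and the MT1X window held 4. SLC30A1 held 2 and the SLC30A3 window shown held 1, all on the opposite strand. Among 35116 promoters of the same length, 29.6% held at least 1 match, 0.601% at least 4, and 7 promoters (0.0199%) at least 8. A second SLC30A3 start in the table, at chr2:27275297-27275596, held 2. The table held 35 promoters for 26 of the 34 members: 17 of these 35 held at least 1 match (48.6%), and the window of MTF1 itself held none. These are matches of letters, not measured binding, which was not assayed.

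**Figure D1:**
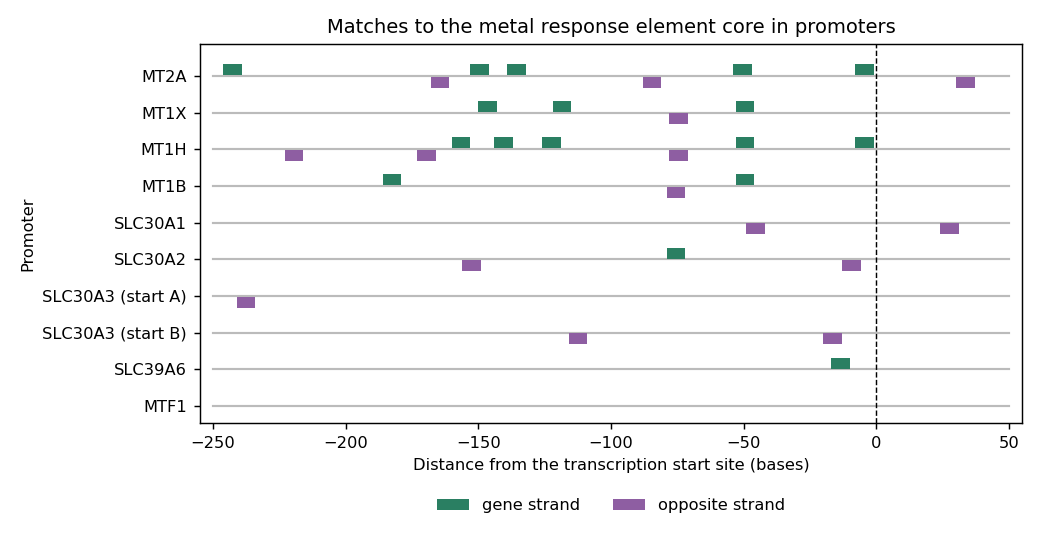
Positions of the metal response element cores in the promoters of members, in bases from the gene start on the x axis, with marks by strand. The 8 matches of MT2A and of MT1H and the 4 of MT1X stand beside the 2 of SLC30A1.

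Library totals ran from 28605187 to 38489992 estimated counts, so 3 counts, taken as the detection floor, equal 0.0778 to 0.105 CPM (counts relative to library size, scaled by the trimmed mean of M-values). The vector-borne SPNS2 row held 0.113 ± 0.117 CPM (SD, n = 3, as for all values given with ±) with the empty vector and 778 ± 12.9 CPM with the SPNS2 vector, as the labels say. The cells' native SPNS2 was read in both groups, at 42.6 ± 1.92 and 50.5 ± 1.798 CPM (edgeR adjusted p = 0.00166). Myeloid and progenitor markers other than MYH11 were present in both groups. MPO led, at 26139.6 ± 221 CPM in the empty-vector group and 26003 ± 759 CPM in the SPNS2 group. MYH11, a gene of the fusion, had 0.180 ± 0.0912 and 0.225 ± 0.188 CPM (39 counts in all), too few to test. The fusion transcript was not examined. Of the 9 tested markers of this list, 2 rose and 2 fell, beside 11.9% of all tested features higher and 12.6% lower. KIT rose from 1567 to 2287 CPM and PTPRC from 83.7 to 100.1 CPM, while CD33 fell from 37.4 to 22.9 CPM and CD34 from 120.4 to 101 CPM (edgeR adjusted p = 3.68e-08, 0.000560, 2.45e-06 and 0.000397). Of 4 tested monocyte markers 2 rose, CD68 from 54.9 to 76.9 CPM and CSF1R from 3.83 to 7.04 CPM, and FCGR1A fell from 81.3 to 66.6 CPM. The defining monocyte marker CD14 had 4 counts in all, and the summed monocyte list gave 138 to 144 CPM with the empty vector and 149 to 152 CPM with SPNS2. Of 14 markers of T, B, erythroid, epithelial and fibroblast cells, 13 lay under 3 CPM in both groups. The exception was EPCAM, at 124 ± 4.57 CPM in the empty-vector group and 142 ± 1.45 CPM in the SPNS2 group (edgeR adjusted p = 0.00137). Summed T cell markers gave 0.389 to 0.597 CPM with the empty vector and 0.864 to 0.923 CPM with SPNS2, where CD3E rose, whereas summed B cell markers gave 3.65 to 3.81 and 2.78 to 3.65 CPM. Erythroid sums reached at most 0.176 CPM and fibroblast sums at most 0.246 CPM. The part of these marker changes in the results below was not tested, and in bulk RNA fewer cells and less RNA per cell cannot be told apart.

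The comparison asked how the zinc genes differed between SPNS2-overexpressing and control cells. Of the 34 members, 23 had enough counts for edgeR's quasi-likelihood test. Among them 5 fell, SLC39A4, SLC39A6, SLC39A14, SLC30A3 and MTF1, and 1 rose, MT2A, at a Benjamini-Hochberg adjusted p under 0.05 over all 13308 features tested. That is 26.1% of the tested members called, against 24.5% of all tested features, a share near the background. The 5 lower members were 21.7% of those tested, where 12.6% of all features were lower, and the 1 higher member was 4.35%, where 11.9% were higher. The libraries of the 2 groups did not overlap in 10 of the 23 (43.5%), against 40.1% of all features. The median log2 fold change of the tested members was 0.02, beside 0.003 over all features, with 14 members above 0 and 9 below.

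**Figure D2:**
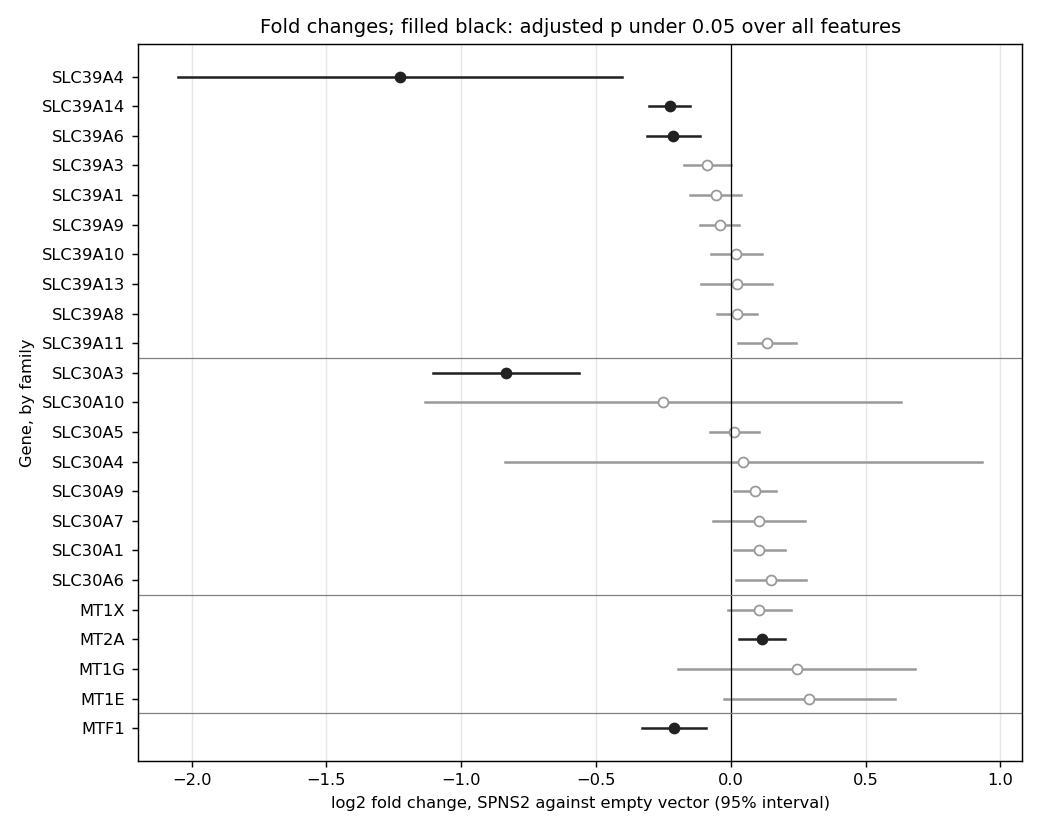
Log2 fold change (SPNS2 minus empty vector) of the 23 tested members on the x axis, with 95% intervals, grouped by family, and called members marked. SLC30A3 and SLC39A4 are the members below -0.5, and the other called members lie within 0.25 of 0.

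Among the importers, 3 of the 10 tested SLC39 genes fell (30%, where 12.6% of all tested features were lower). The other 7 did not pass the test, and the family median log2 fold change was -0.05. SLC39A14 (ENSG00000104635.15), a carrier of zinc, iron and manganese into cells, was read at 97.9, 99.3 and 96.9 CPM in the empty-vector libraries 1, 2 and 3 and 87.6, 81.3 and 82.3 CPM in the SPNS2 libraries 1, 2 and 3. All 3 SPNS2 libraries lay below all 3 controls. The means were 98.04 ± 1.17 CPM in the empty-vector group and 83.8 ± 3.39 CPM in the SPNS2 group, a level that fell by 14.5% (log2 fold change -0.23, SE 0.0341, 95% interval -0.30 to -0.15, edgeR adjusted p = 0.000778).

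SLC39A6 (ENSG00000141424.13), a plasma membrane zinc importer also known as LIV-1, stood at 47.5, 51.2 and 47.1 CPM in the empty-vector libraries 1, 2 and 3 and 44.02, 39.9 and 41.8 CPM in the SPNS2 libraries 1, 2 and 3. Its groups did not overlap either, though the gap between the lowest control and the highest SPNS2 library was narrower than the range within either group. Its mean was 48.6 ± 2.27 CPM in the empty-vector group and 41.9 ± 2.05 CPM in the SPNS2 group, and it fell by 13.8% (log2 fold change -0.21, SE 0.0452, 95% interval -0.31 to -0.11, edgeR adjusted p = 0.00595). SLC39A14 and SLC39A6 passed the test under every alternative run without a fold minimum, with largest adjusted p of 0.00572 and 0.0289.

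SLC39A4 (ENSG00000147804.10), the main zinc importer of the gut lining, was near the low end of the tested range. It had 1.76, 1.69 and 4.78 CPM in the empty-vector libraries 1, 2 and 3 and 1.42, 0.923 and 1.16 CPM in the SPNS2 libraries 1, 2 and 3. The groups did not overlap, with the lowest control at 1.69 CPM and the highest SPNS2 library at 1.42 CPM. Empty-vector library 3, with 154 counts, stood far above the other 5 libraries, which had 29 to 68 counts. The fitted difference was -1.23 (SE 0.374, edgeR adjusted p = 0.0345). Without that library it was -0.56 (adjusted p = 0.105), and each SPNS2 library taken out in turn (1, 2, then 3) also cost the call, at 0.0621, 0.114 and 0.0956, as did DESeq2 (0.0990) and limma voom (0.0821).

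The importers of highest level per transcript length were SLC39A3, which takes up zinc at the cell surface, and SLC39A9, a zinc transporter of the Golgi and cell surface. SLC39A3 was at 71.2, 68.4 and 69.6 CPM in the empty-vector libraries 1, 2 and 3 and 64.9, 62.7 and 69.3 CPM in the SPNS2 libraries 1, 2 and 3 (log2 fold change -0.09, edgeR adjusted p = 0.134). SPNS2 library 3 lay among the controls and the other SPNS2 libraries below them, and without library 3 the difference was -0.13 (adjusted p = 0.0344). SLC39A9 was at 98.8, 101 and 99.6 CPM in the empty-vector libraries 1, 2 and 3 and 98.6, 99.4 and 92.7 CPM in the SPNS2 libraries 1, 2 and 3 (log2 fold change -0.04, edgeR adjusted p = 0.419), and its groups overlapped.

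The other 5 tested importers that did not pass were SLC39A1, SLC39A8, SLC39A10, SLC39A11 and SLC39A13. Over all 7 that did not pass, log2 fold changes ran from -0.09 to 0.14. SLC39A8, which like SLC39A14 carries manganese as well as zinc, had 49.2 ± 1.54 CPM in the empty-vector group and 49.9 ± 0.497 CPM in the SPNS2 group, a difference of 0.02 (95% interval -0.05 to 0.10). SLC39A11 was the one nearest to the threshold (0.14, 95% interval 0.03 to 0.24, edgeR adjusted p = 0.0652) and passed without empty-vector library 2 (0.0383). Over its principal transcript, SLC39A1 shared 71.5% of 31-base windows with transcripts of other genes and SLC39A3 27.6%, so their values are uncertain. The principal transcripts of SLC39A4, SLC39A6 and SLC39A14 shared none.

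**Figure D3:**
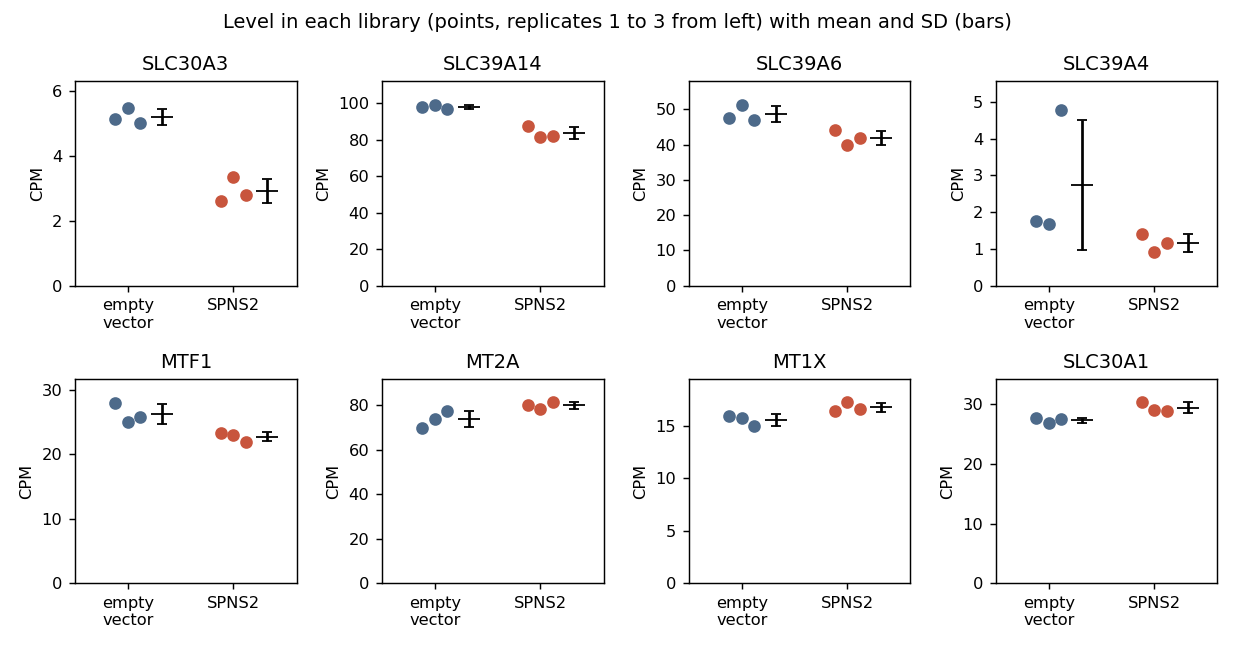
CPM in each of the 6 libraries for the called members, MT1X and SLC30A1, 1 panel a gene with its own y axis from 0, points for libraries and bars for each group's mean and SD. The groups do not overlap in any panel, and in SLC39A4 empty-vector library 3 stands above the rest.

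Among the exporters, SLC30A3 fell, 1 of 8 tested SLC30 genes (12.5%, where 12.6% of all tested features were lower). The other 7 did not pass the test, and the family median log2 fold change was 0.07. SLC30A3 (ENSG00000115194.11) is known for loading zinc into the synaptic vesicles of neurons. It was read at 5.14, 5.48 and 4.997 CPM in the empty-vector libraries 1, 2 and 3 and 2.62, 3.34 and 2.79 CPM in the SPNS2 libraries 1, 2 and 3. Every control library lay at or above 4.997 CPM and every SPNS2 library at or below 3.34 CPM. In counts these were 198, 156 and 161 against 85, 105 and 94. The mean was 5.204 ± 0.248 CPM in the empty-vector group and 2.92 ± 0.377 CPM in the SPNS2 group, and the level fell by 43.9% (log2 fold change -0.83, SE 0.124, 95% interval -1.11 to -0.56, edgeR adjusted p = 0.000703).

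SLC30A3 was called under all 12 alternatives that changed the scaling, the test, the filter or the block or left out a library, with adjusted p from 2.44e-05 to 0.00558. Of all 13308 tested features, 190 (1.43%) were called lower with a log2 fold change of at least 0.5 in size. SLC30A3 and SLC39A4 were the members among them.

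The exporters of highest level per length were SLC30A5, which forms a zinc-loading pair with SLC30A6 in the early secretory pathway, and SLC30A9, a mitochondrial zinc transporter. SLC30A5 was at 51.9, 55.4 and 52.6 CPM in the empty-vector libraries 1, 2 and 3 and 56.6, 52.1 and 52.6 CPM in the SPNS2 libraries 1, 2 and 3 (log2 fold change 0.01, 95% interval -0.08 to 0.10, edgeR adjusted p = 0.845). The groups overlapped and their means were within the spread of either. SLC30A9 was at 49.2, 49.98 and 52.8 CPM in the empty-vector libraries 1, 2 and 3 and 54.5, 53.2 and 53.98 CPM in the SPNS2 libraries 1, 2 and 3 (log2 fold change 0.09, 95% interval 0.01 to 0.17, edgeR adjusted p = 0.0909). Its SPNS2 libraries were all above the controls, and without empty-vector library 3 the adjusted p was 0.0402.

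SLC30A1, the plasma membrane zinc exporter and an MTF1 target, is given in full although the rule for named genes did not select it, a choice made after its values were seen. It was at 27.6, 26.8 and 27.4 CPM in the empty-vector libraries 1, 2 and 3 and 30.3, 29.005 and 28.7 CPM in the SPNS2 libraries 1, 2 and 3. The groups did not overlap, but the difference of 0.11 (95% interval 0.01 to 0.20) did not pass after adjustment (edgeR adjusted p = 0.09903). SLC30A6, the partner of SLC30A5, differed by 0.15 (adjusted p = 0.0915), and SLC30A7, a Golgi zinc transporter, by 0.11 (adjusted p = 0.367). SLC30A10, a manganese exporter, and SLC30A4, a transporter of endosomes and secretory vesicles, were each under 1 CPM in all 6 libraries.

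Among the metallothioneins, MT2A rose slightly, 1 of 4 tested (25%, where 11.9% of all tested features were higher). MT1X, MT1E and MT1G did not pass the test by themselves. All 4 log2 fold changes were above 0, with a median of 0.18 beside 0.003 over all features, although the rows share sequence and are not independent. MT2A (ENSG00000125148.7), the main metallothionein in these cells, was at 69.9, 73.9 and 77.4 CPM in the empty-vector libraries 1, 2 and 3 and 79.9, 78.3 and 81.4 CPM in the SPNS2 libraries 1, 2 and 3. All SPNS2 libraries lay above all controls, by less than 1 CPM between empty-vector library 3 and SPNS2 library 2. The mean was 73.7 ± 3.75 CPM in the empty-vector group and 79.9 ± 1.53 CPM in the SPNS2 group, 8.35% higher (log2 fold change 0.12, SE 0.0389, 95% interval 0.03 to 0.20, edgeR adjusted p = 0.0484).

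This call for MT2A rests close to the threshold. DESeq2 did not make it (adjusted p = 0.0623). Of the 6 fits that omit 1 library, only the one lacking empty-vector library 3 kept it (0.0188), while omitting control 1 or 2 gave 0.153 and 0.105, and omitting SPNS2 library 1, 2 or 3 gave 0.116, 0.0748 and 0.151. MT1X was at 15.98, 15.8 and 14.96 CPM in the empty-vector libraries 1, 2 and 3 and 16.4, 17.3 and 16.6 CPM in the SPNS2 libraries 1, 2 and 3 (log2 fold change 0.11, 95% interval -0.01 to 0.22, edgeR adjusted p = 0.181). Its groups did not overlap. MT1E was at 5.37 ± 1.15 CPM in the empty-vector group and 6.57 ± 0.664 CPM in the SPNS2 group (log2 fold change 0.29, edgeR adjusted p = 0.172), with empty-vector library 3 at 6.67 CPM inside the range of the SPNS2 libraries. Without that library the difference was 0.48 (adjusted p = 0.0244). MT1G stood near 1 CPM throughout (log2 fold change 0.25, adjusted p = 0.4198).

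The counts of the 9 metallothionein rows were summed, so that a split of reads among these rows does not matter. Reads shared with rows outside the sum, such as the pseudogene MT1L (69 counts in all), could still move it. The sum was 91.3, 95.7 and 99.96 CPM in the empty-vector libraries and 103.9, 103.95 and 105.3 CPM in the SPNS2 libraries. The groups did not overlap, and the SPNS2 libraries lay closer together than the controls. The sum rose by 0.13 on the log2 scale (SE 0.0352, 95% interval 0.05 to 0.20, edgeR adjusted p = 0.0227). An exact two-sided permutation test of the 6 sums gave p = 0.1, the smallest that 3 against 3 libraries can give. Sums without overlap always give this value, so it adds nothing to the lack of overlap. Omitting control 1 or 2 moved the adjusted p to 0.0637 and 0.0641, and omitting SPNS2 library 1, 2 or 3 moved it to 0.0620, 0.0603 and 0.0754, with differences from 0.0929 to 0.16 over all leave-outs. MT2A held 76.5%, 77.2% and 77.4% of metallothionein counts in the control libraries and 76.9%, 75.3% and 77.3% in the SPNS2 libraries, so its share of the sum overlapped between groups.

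MTF1 (ENSG00000188786.10), the zinc sensor, was at 27.99, 25.04 and 25.7 CPM in the empty-vector libraries 1, 2 and 3 and 23.3, 22.99 and 21.9 CPM in the SPNS2 libraries 1, 2 and 3. All SPNS2 libraries lay below all controls. The mean was 26.3 ± 1.54 CPM in the empty-vector group and 22.7 ± 0.721 CPM in the SPNS2 group, and MTF1 fell by 13.4% (log2 fold change -0.21, SE 0.0535, 95% interval -0.33 to -0.09, edgeR adjusted p = 0.01497). Without SPNS2 library 3 the difference was -0.18 and missed the threshold (adjusted p = 0.0574). The MTF1 transcript was lower in the same libraries in which the summed metallothionein transcripts were higher. SLC30A1 was also higher in these libraries (log2 fold change 0.11), but its difference did not pass. Any link between these differences was not tested, and the level of the MTF1 transcript does not measure MTF1 activity.

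**Figure D4:**
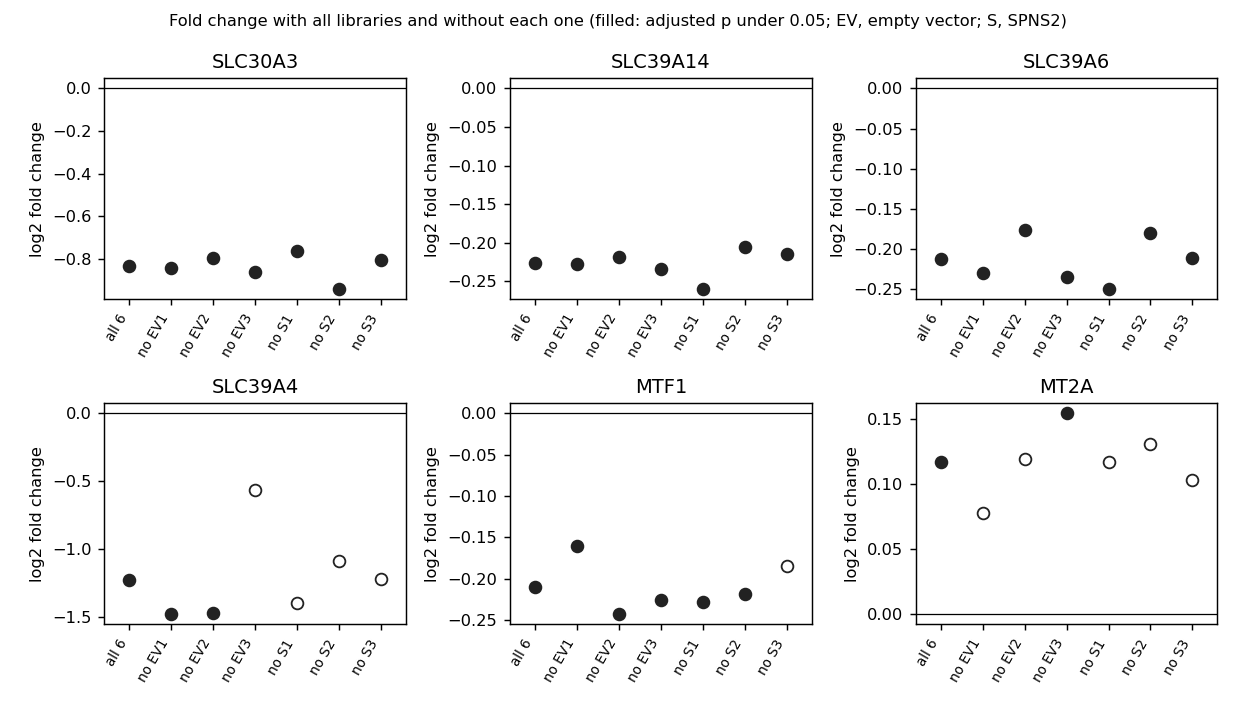
Log2 fold change (SPNS2 minus empty vector) on the y axis for the called members, 1 panel a gene with its own axis, with all libraries and with each of the 6 left out along the x axis, filled points passing the threshold and open points not. SLC30A3, SLC39A14 and SLC39A6 pass in every fit, and SLC39A4 moves from -1.23 to -0.56 without empty-vector library 3.

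Levels can be compared between genes only per length, here as CPM per kilobase of the principal GENCODE 29 transcript. MT2A was highest at 93.8 ± 4.77 CPM per kilobase with the empty vector and 102 ± 1.95 with SPNS2. SLC39A3 followed at 46.4 ± 0.942 and 43.7 ± 2.24, then MT1X at 34.6 ± 1.197 and 37.2 ± 1.03. The leading importer was thus read at under the level of MT2A in both groups.

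Over all 6 libraries the next were SLC39A9 (27.6 CPM per kilobase), SLC39A1 and SLC39A14 (both 19.6), SLC39A11 (17.02) and SLC39A8 (15.3). The libraries of SLC39A1 and SLC39A14 overlapped. Among the exporters the order was led by SLC30A5 (12.3) and SLC30A9 (8.41), with SLC30A6 at 5.31 and SLC30A1 at 5.17. MTF1 was at 3.07 and SLC30A3 at 1.797, so the transporter with the clearest fall was among the least abundant of those tested. The order depends on the length taken: over the union of all exons MT2A remained highest at 59.1, but SLC39A1 (15.8) then stood above SLC39A3 (14.9), and MT1X was at 9.12.

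**Figure D5:**
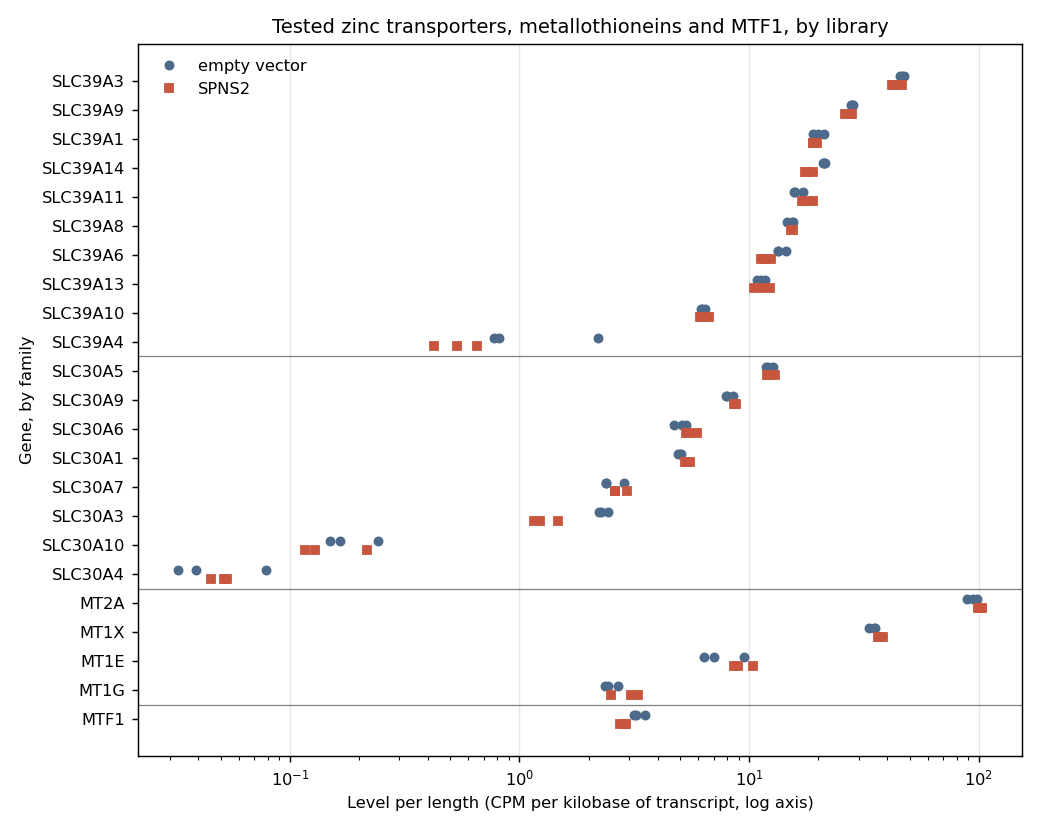
Level per length of the 23 tested members, as CPM per kilobase of the principal transcript on a log axis, with points for libraries by group and members ordered by level within each family. MT2A stands highest and SLC30A4 lowest, over a range of more than 3 decades.

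The remaining 11 members did not have enough counts to test. MT1A, MT1B, MT1H, MT1M and SLC39A12 had no count in any library, which allows at most 0.0778 to 0.105 CPM per library, for counting error only. MT1F had 1 count in all, SLC30A8 2, SLC39A2 4, SLC39A5 9 and SLC30A2 23. The MT1H promoter held 8 metal response element cores, as many as that of MT2A, and the gene had no count.

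SLC39A7, which releases zinc from the endoplasmic reticulum, had 698 counts in empty-vector library 1 and 0 in the other 5 libraries. It was left untested because the filter asks for counts in at least 3 libraries. Of 8824 features with at least 400 counts in a library, 15 were at 0 in 1 or more libraries and 3 at 0 in 5 of 6. Of the genes directly beside it, RXRB had 0 counts in all 6 libraries and HSD17B8 had 144 to 271. The next genes out were COL11A2, with 0 to 32 counts, and RING1, with 1396 to 1853. Where the reads of SLC39A7 were assigned was not tested, and its level is not read from these values.

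Other metal and stress genes were taken from 5 lists with 49 genes, of which 41 were tested and 10 called (24.4%), again near the background of 24.5%. Of the 41, 9.76% rose and 14.6% fell, beside 11.9% and 12.6% of all tested features. None of 6 tested genes of other zinc proteins passed the edgeR test, none had an unadjusted p under 0.05, and DESeq2 and limma voom each called 0 (median log2 fold change -0.05). Of 12 copper genes 2 rose and 1 fell (median 0.01). SLC31A2, an intracellular copper transporter, rose from 5.89 ± 0.4202 to 7.27 ± 0.312 CPM (edgeR adjusted p = 0.0355). CCS, the copper chaperone of SOD1, had a log2 fold change of 0.15 (edgeR adjusted p = 0.02501), and SOD1, the copper-zinc superoxide dismutase, fell by 0.11 (adjusted p = 0.0377). The higher copper calls dropped to 0 with DESeq2 and in every fit that omitted 1 library other than empty-vector library 1. With the replicate number as a block, or without the filter on low counts, the higher calls numbered 1. The lower one was lost with that block and when control 2, control 3, SPNS2 library 1 or SPNS2 library 3 was omitted.

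Of 6 manganese and divalent metal genes 2 rose (median 0.01), where 11.9% of all tested features were higher. SLC40A1, the iron exporter ferroportin, rose from 14.7 ± 0.308 to 22.5 ± 0.628 CPM, by 0.61 on the log2 scale (edgeR adjusted p = 1.37e-05). TMEM165, a Golgi manganese transporter, rose by 0.12 (adjusted p = 0.00937).

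NRF2 is a transcription factor of the oxidative stress response, and metallothioneins are also induced by oxidants and glucocorticoids. Of 11 tested NRF2 response genes 4 fell and 0 rose (median -0.09), where 12.6% of all tested features were lower and 11.9% higher. SRXN1, which repairs oxidised peroxiredoxins, fell from 23.1 ± 0.578 to 18.1 ± 0.2998 CPM (edgeR adjusted p = 0.000342). PRDX1, a peroxiredoxin, fell by 0.17 on the log2 scale, SLC7A11, a cystine transporter, by 0.26 and NQO1, a quinone reductase, by 0.59 (adjusted p = 0.000467, 0.0183 and 0.0188). Without empty-vector library 2 or SPNS2 library 2 the count was 2. Of 6 tested glucocorticoid response genes FKBP5, a chaperone of the glucocorticoid receptor, fell from 81.99 ± 3.001 to 70.5 ± 1.92 CPM (edgeR adjusted p = 0.00138, list median -0.09).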

How the data were processed

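Polyadenylated RNA from 3 empty-vector and 3 SPNS2-vector libraries of ME-1 cells was sequenced with a stranded mRNA kit, per the labels' protocols. The authors deposited expected counts per Ensembl gene in 1 table. Salmon is named in the submitters' processing notes. Its version, the build and the annotation behind the counts: not given in the sources used here. All deposited values were whole numbers. Symbols came from a table of Ensembl identifiers, with 29328 of 34370 rows named.

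Genes were filtered with filterByExpr (minimum count 10, total 15), scaled by TMM and tested with edgeR 4.0.16 in R 4.3.3 (quasi-likelihood, Benjamini-Hochberg over all features, threshold 0.05), after a test on simulated data. Alternatives used DESeq2 1.42.0, limma 3.58.1, other filters and leaving out libraries. No 2 libraries agreed within sampling noise. Depth and floors cover counting error only. Windows of 31 bases of each member's principal transcript measured shared sequence. The members and the lists (other zinc proteins, copper, manganese and divalent metals, NRF2, glucocorticoid, cell markers) were chosen with earlier results of these data known. Values per library are given for called members, MTF1 and the 2 members of highest level per length in each family, and in other lists for up to 4 called genes. The pseudogene MT1L (69 counts in all) was left out.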

Additional observations from a re-analysis of the deposited data

How the results depend on the processing

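SLC30A3, SLC39A14 and SLC39A6 were called in all alternatives without a fold minimum. Members called higher numbered 1, with 0 under DESeq2, 0 with a minimum log2 fold change of 0.5 in size, and 0 to 3 when a library was left out. Members called lower numbered 5, with 2 at that minimum (SLC30A3 and SLC39A4) and 4 to 5 in the leave-outs. Without the filter on low counts SLC39A7, read in 1 library, was also called, giving 6. Among the other lists 4 genes were higher, with 2 under DESeq2 and 2 to 4 in the leave-outs, and 6 were lower, with 3 to 6 in the leave-outs. The metallothionein sum kept its direction (0.0929 to 0.16). Among the leave-outs it passed only without empty-vector library 3 (edgeR adjusted p = 0.0109). In the others the adjusted p ran from 0.0603 to 0.0754. Over all features 3263 were called, 2518 with DESeq2 and 2246 to 2738 in the leave-outs, where fewer libraries were fitted. For the other changes the cause was not tested.

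With the replicate number as a block, 2 members were higher (SLC30A6 and SLC39A11), 5 lower and 2723 features called, MT2A was lost (adjusted p = 0.0544) and the metallothionein sum held (0.13, adjusted p = 0.0332). No pairing by number was seen. Same-numbered libraries had correlations of deviations of -0.0418, 0.0316 and -0.0357, and 2 of 6 libraries correlated best with their own number. This check cannot show that same-numbered libraries were handled separately.

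Direction turned in leave-outs for 5 members that no fit called: SLC30A4 (-0.21 to 0.49), SLC30A5 (-0.0245 to 0.0409), SLC39A10 (-0.0152 to 0.0484), SLC39A13 (-0.0347 to 0.0792) and SLC39A8 (-0.0040 to 0.0402).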
